A study of Mus musculus with 19 samples.

Results

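Epididymal white adipose tissue (eWAT), the fat pad beside the testis and epididymis, was compared between mice on a low-fat diet with low Mg2+ (LowMg-LFD, n = 5) and mice on a low-fat diet with normal Mg2+ (NormMg-LFD, n = 4). These 9 mice, of 19 analysed, are all those labelled with the low-fat diet. All were male C57Bl6/J mice without a transgene or gene deletion, adult when the diets began, and all had eaten their diet for 17 weeks before the tissue was frozen. The other 10 mice received a high-fat diet with normal (NormMg-HFD, n = 5) or low Mg2+ (LowMg-HFD, n = 5) and enter below for the choice of genes tested, for the spread of each gene and where the diets are compared. Mice are called by their number in the labels, so the NormMg-LFD mice are numbers 2 to 5 and the LowMg-LFD mice numbers 1 to 5. The mice were housed in groups, the cage of each is not given in the sources used here, and the part of the cage in any difference was not tested.

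Mg2+ is the cofactor of ATP and thereby of kinases, adenylyl cyclase and the ion pumps. Cells take it up through channels such as TRPM7 and MAGT1 and move it across membranes with the CNNM proteins, which bind the phosphatases PTP4A1 to PTP4A3. White adipocytes store triacylglycerol made by esterification of fatty acids and release it through the lipases ATGL (Pnpla2), hormone-sensitive lipase (Lipe) and monoacylglycerol lipase (Mgll), under control of insulin and of the β3-adrenergic receptor (Adrb3). Epididymal fat also holds macrophages, B cells and stromal progenitors, and it is cut free from the testis, epididymis and accessory glands at dissection.

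RNA was sequenced to a narrow range of 13.0 M reads per mouse (lowest 12.99 M, highest 13.02 M), of which 86.1 to 89.7% mapped. Levels were deposited as FPKM, the fragments mapped to a transcript scaled by its length and by the mapped reads of the mouse. Of 24237 genes, 8336 were tested, namely those that averaged more than 8 FPKM in some group and passed that level in at least 4 of its mice. At that depth, 8 FPKM on a transcript of 1 kb stands for 89.6 to 93.3 reads. Fold changes are LowMg-LFD over NormMg-LFD on the scale of log2(FPKM + 1), which understates the change of low genes, and p-values come from limma over all 8336 genes.

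Adipocyte genes dominated in every mouse, as the tissue label states, but transcripts of neighbouring organs stood out in single mice. The 19 adipocyte markers summed to 27963 FPKM in NormMg-LFD 4 and to between 33016 and 43345 FPKM in the other 8 mice. Pancreatic digestive enzymes were present in NormMg-LFD 3, in which Ctrb1, a chymotrypsinogen, reached 342 FPKM against at most 1.21 in the other 8 mice. The 32 pancreatic markers summed to 2415 FPKM there and to between 22.7 and 67.8 FPKM elsewhere, and the seminal vesicle proteins Svs5 and Svs4 reached 61.1 and 40.7 FPKM in the same mouse. Epididymal genes were present in LowMg-LFD 4, in which Crisp1, a sperm-coating protein, reached 91.2 FPKM against at most 1.10 elsewhere. NormMg-LFD 4 carried genes of testicular Leydig cells, with 411 FPKM of Insl3 against at most 9.69 FPKM elsewhere, and 29.5 FPKM of the steroid enzyme Cyp17a1 against at most 0.97. Protamine 1 (Prm1), which packs DNA in spermatids, stood at 188 FPKM in NormMg-LFD 5, 70.4 in NormMg-LFD 4, 40.6 in LowMg-LFD 1 and at most 8.57 FPKM in the other 6 mice. NormMg-LFD 3 and LowMg-LFD 4 are the mice left out together below, and values without some other mice are given beside the results.

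**Figure D1:**
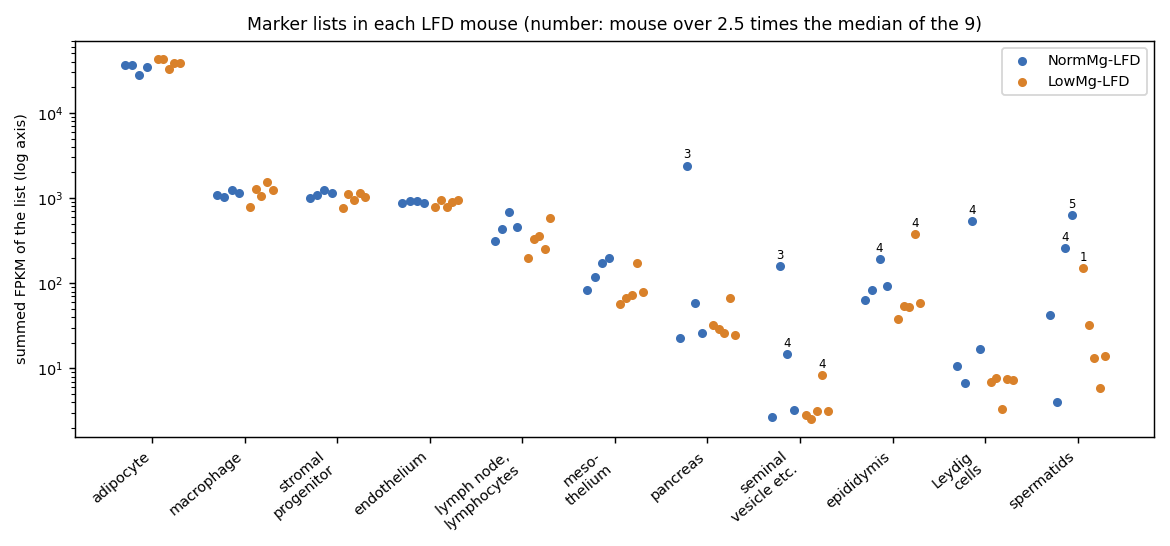
Summed FPKM (log axis) of each marker list in the 4 NormMg-LFD and 5 LowMg-LFD mice, with 1 point per mouse and the number of a mouse beside a point that is high for its list. Adipocyte, macrophage, progenitor and endothelial lists lie close together, whereas pancreatic genes stand out in NormMg-LFD 3, Leydig cell genes in NormMg-LFD 4 and epididymal genes in LowMg-LFD 4.

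Low Mg2+ on the low-fat diet left no gene past the threshold. Of the 8336 genes, 0 had an adjusted p under 0.05 by limma (0%), and the smallest adjusted p was 0.740. Before adjustment, 547 genes (6.56%) had a p under 0.05, of which 142 (1.7%) were higher and 405 (4.86%) lower in LowMg-LFD mice. In 149 genes (1.79%) the 2 groups did not overlap, 40 (0.48%) with every LowMg-LFD mouse above every NormMg-LFD mouse and 109 (1.31%) with every one below. The lean towards lower values came with a shift of the whole distribution, since the median over all genes was -0.06 log2. After each mouse was centred on its own median, 274 genes were higher and 197 lower at an unadjusted p under 0.05, and the share of genes higher at any p went from 35.1 to 52.5% (50.9% with quantile normalization). The lean also rested on single mice, with 150 higher and 209 lower without NormMg-LFD 4, and 141 higher and 197 lower without LowMg-LFD 1.

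The same mice set how large a change could have been missed. The 95% confidence interval of a gene reached 0.30 log2 to either side of its estimate at the median. It lay wholly within 1 log2 of no change, for 7954 genes (95.4%). Only 24 genes had an estimate beyond 1 log2 and 239 an estimate beyond 0.5 log2. With all 9 mice and these settings, the LFD difference of every single gene thus missed the threshold across genes, and "higher" and "lower" refer to these 9 mice. Without both NormMg-LFD 3 and LowMg-LFD 4, 1 gene passed, Vasn, which encodes a secreted binder of TGF-β. Its FPKM in NormMg-LFD mice 2 to 5 was 24.8, 12.6, 28.4 and 26.2, and in LowMg-LFD mice 1 to 5 it was 9.70, 13.3, 14.5, 16.2 and 14.2. NormMg-LFD 3, the mouse with pancreatic genes, lay among the low Mg2+ mice, and leaving out both mice moved the difference from -0.68 log2 (limma adjusted p = 0.740) to -0.99 log2 (adjusted p = 0.0494). Without both mice 701 of 8329 genes (8.42%) had an unadjusted p under 0.05, and 626 genes (7.52%) had groups of 3 and 4 mice that did not overlap, which smaller groups do more readily. Vasn was chosen after its values were seen.

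**Figure D2:**
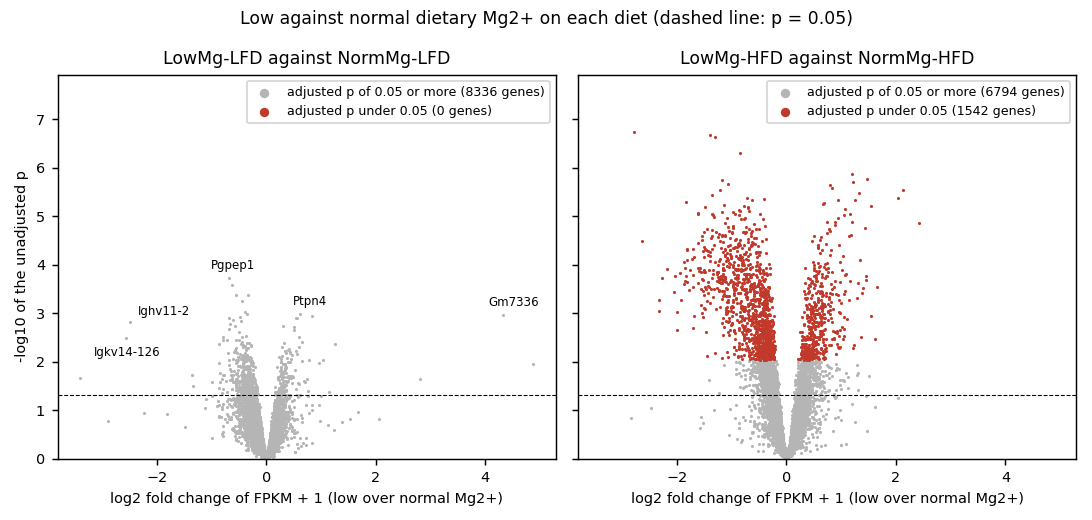
Log2 fold change of FPKM + 1 by low Mg2+ (x axis) against −log10 of the unadjusted limma p (y axis) for 8336 genes on the LFD (left) and on the HFD (right), with 1 point per gene. No gene on the LFD is coloured as past an adjusted p of 0.05, against 1542 genes on the HFD.

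Among the lower genes with separate groups, the largest differences were in 2 antibody gene segments. Ighv11-2 (chromosome 12, 114048241 to 114048812, minus strand) is a variable (V) segment of the heavy chain and Igkv14-126 (chromosome 6, 67896172 to 67896642, plus strand) one of the κ light chain, both in GRCm38. The pair is known from the natural antibodies of B-1 cells that bind phosphatidylcholine, and B-1 cells reside in the peritoneal cavity and in visceral fat. Igkv14-126 stood at 87.0, 78.2, 254 and 110 FPKM in NormMg-LFD mice 2 to 5 and at 11.03, 63.6, 5.21, 19.2 and 32.7 FPKM in LowMg-LFD mice 1 to 5. Every LowMg-LFD mouse lay below every NormMg-LFD mouse, NormMg-LFD 4 was highest, and the difference was -2.56 log2 (95% CI -4.15 to -0.97, limma unadjusted p of 0.00327, adjusted p = 0.740). Ighv11-2 followed the same order at the extremes, with 49.6, 39.9, 139 and 57.8 FPKM against 7.56, 26.5, 3.95, 6.07 and 23.2 FPKM. The groups did not overlap, at -2.49 log2 (95% CI -3.89 to -1.08, limma unadjusted p of 0.00151, adjusted p = 0.740). Without NormMg-LFD 4 the differences were -2.19 and -2.11 log2. Of the 50-base stretches of Ighv11-2, 38.6% also occur in Ighv11-1, so reads of these 2 segments may be exchanged.

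The share of the pair among antibody V segments was lower as well. The 213 V segments in the table summed to 278 to 876 FPKM in NormMg-LFD mice and to 98.6 to 363 FPKM in LowMg-LFD mice, ranges that overlap. The pair made up 41.4, 42.5, 44.9 and 42.6% of that sum in NormMg-LFD mice 2 to 5, a nearly constant share whatever the total. In LowMg-LFD mice 1 to 5 it made up 5.999, 25.0, 9.29, 9.75 and 15.4%, so that the highest low Mg2+ mouse stayed below the lowest normal Mg2+ mouse. The pair was picked for its difference in these mice, and no test is given. The HFD mice entered that choice only through the filter and the shared spread of each gene. Their share ranged from 2.28 to 25.3% with normal and from 2.22 to 34.9% with low Mg2+. The difference of the means was 2.42 percentage points (exact two-sided permutation test over 252 splits, p = 0.706). The NormMg-LFD mice lay above all 15 mice of the other 3 groups, a comparison that reuses the NormMg-LFD values behind the choice of the pair.

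In the other 5 antibody genes tested the groups overlapped. Ighm, the constant region of IgM, stood at 263, 326, 445 and 360 FPKM against 132, 228, 317, 145 and 484 FPKM, and the highest value belonged to a low Mg2+ mouse (-0.56 log2, 95% CI -1.31 to 0.19). Igkc, the κ constant region, was at 114, 106, 311 and 167 FPKM against 113, 105, 33.9, 101 and 118 FPKM, which overlap (-0.86 log2, 95% CI -2.01 to 0.29). Of the 4 V segments that were tested, the other 2, Iglv1 and Ighv1-55, differed by -0.34 and 0.57 log2 with intervals that span zero. Ighj1, a joining segment of the heavy chain barely longer than a read, was at 69.5, 20.2, 41.2 and 19.9 FPKM against 30.1 and 10.1 FPKM in LowMg-LFD 2 and 4, and was listed at 0 in LowMg-LFD 1, 3 and 5. Its difference on the log2(FPKM + 1) scale was -3.40 (95% CI -6.24 to -0.55, limma unadjusted p of 0.0218, adjusted p = 0.753). The B cell surface genes Cd79a and Ms4a1 stayed at or under 3.09 FPKM in every LFD mouse and were not tested. In bulk tissue, fewer cells of a type and less RNA per cell cannot be told apart.

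**Figure D3:**
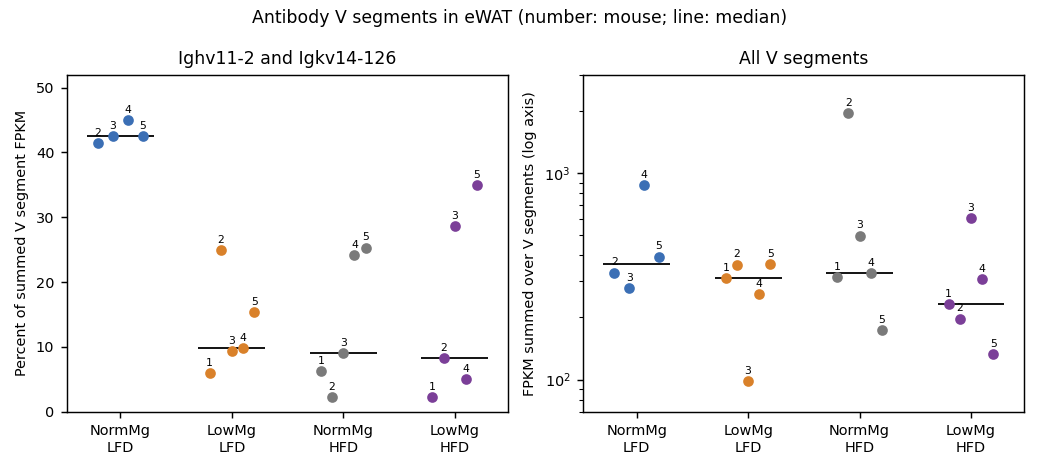
Share of Ighv11-2 and Igkv14-126 in the FPKM summed over all V segments (left) and that sum (right, log axis) in each of the 19 mice, with the mouse number at each point and the median of each group as a line. The 4 NormMg-LFD mice sit between 41.4 and 44.9%, above the mice of all other groups, while the sums overlap between groups.

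Among protein-coding genes outside the antibody loci, the lowest unadjusted p belonged to Pgpep1, which encodes pyroglutamyl peptidase, an enzyme that trims peptide ends (chromosome 8, 70646435 to 70660388, minus strand). Pgpep1 stood at 15.3, 19.3, 23.5 and 20.9 FPKM in NormMg-LFD mice and at 12.4, 13.7, 13.5, 11.9 and 8.24 FPKM in LowMg-LFD mice. The groups did not overlap, and the difference was -0.68 log2 (95% CI -0.99 to -0.37, limma unadjusted p of 0.000193, adjusted p = 0.740). Dpp4, a membrane peptidase that marks stromal progenitors and is also shed as an adipokine, was at 8.83, 10.4, 9.07 and 9.98 FPKM against 4.03, 5.34, 5.10, 7.92 and 5.16 FPKM. Every low Mg2+ mouse was below every normal Mg2+ mouse, with LowMg-LFD 4 closest (-0.72 log2, 95% CI -1.18 to -0.27). Fmr1, an RNA-binding repressor of translation, was at 132, 88.0, 94.6 and 104 FPKM against 56.2, 59.5, 85.5, 47.6 and 79.8 FPKM. Its groups were separate but close, with LowMg-LFD 3 just under NormMg-LFD 3 (-0.68 log2, 95% CI -1.06 to -0.30).

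Ampd2, which deaminates AMP, was at 18.1, 11.1, 14.8 and 11.7 FPKM against 6.96, 8.80, 8.64, 9.49 and 7.48 FPKM, without overlap (-0.67 log2, 95% CI -1.05 to -0.29). Ak1, adenylate kinase, differed by -0.85 log2 and Myl4, a myosin light chain, by -0.80 log2. Both had separate groups, but Ak1 was highest in NormMg-LFD 4 and stood at -0.66 log2 without that mouse. Tfr2, an iron sensor, and Ankrd29 completed the 10 genes that were lowest by fold with separate groups. By p alone, Mxra8 (-0.63 log2), Wipi1, an autophagy protein (-0.34 log2), Ndn, a repressor of adipogenesis (-0.55 log2), and Zfp385a (-0.44 log2) ranked next to Pgpep1.

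Among the higher genes with separate groups and uniquely placed reads, the largest difference was in Ptpn4. Ptpn4, a tyrosine phosphatase (chromosome 1, 119652467 to 119837613, minus strand), was at 6.16, 5.79, 4.90 and 6.49 FPKM in NormMg-LFD mice and at 9.70, 10.4, 8.88, 9.88 and 8.34 FPKM in LowMg-LFD mice. No mouse overlapped, and the spread within groups was small (0.61 log2, 95% CI 0.28 to 0.94, limma unadjusted p of 0.00104, adjusted p = 0.740). Retsat, a retinol saturase that PPARγ induces in adipocytes, was at 46.5, 44.8, 39.96 and 45.03 FPKM against 60.8, 72.0, 47.4, 76.9 and 60.7 FPKM. LowMg-LFD 3 lay barely above the normal Mg2+ mice (0.50 log2, 95% CI 0.20 to 0.80). Adig, a small adipocyte protein of lipid droplet formation, was at 180, 179, 148 and 186 FPKM against 239, 235, 219, 219 and 225 FPKM, and the groups stood apart (0.40 log2, 95% CI 0.13 to 0.66).

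Acat2, Gm7336, Abi3 and Arxes1 need a caveat on mapping. Acat2, the cytosolic acetyl-CoA acetyltransferase, was at 37.6, 34.1, 28.7 and 31.5 FPKM against 64.3, 37.7, 60.3, 43.4 and 40.1 FPKM, with LowMg-LFD 2 at the level of NormMg-LFD 2 (0.54 log2, 95% CI 0.24 to 0.83). Of its 50-base stretches, 39.1% also occur in Acat3 or Tcp1. Gm7336, a processed pseudogene (chromosome 7, 51746647 to 51747878), had the largest positive difference with separate groups, from 0.53, 0.00, 0.15 and 0.00 FPKM to 57.6, 32.9, 47.7, 26.6 and 1.46 FPKM. All of its 50-base stretches (100%) occur in other genes, led by Gapdh, so no read can be placed on it with certainty, and its value depends on how reads were shared out. Also among the 10 highest by fold with separate groups were Rtp4, Abi3, 1190007I07Rik and Dhrs7b, at 0.43 to 0.47 log2. Nabp1 (0.84 log2) and Arxes1 (0.56 log2) had low p-values but overlapping groups. Of the 50-base stretches of Abi3, 66.7% also occur in Zfp652, Phospho1 or Gngt2, and of those of Arxes1 38.9% in Arxes2. Of the other genes named here, Rpl36, Cpt1b, Ptp4a1, Insl3, Jund, Sycp3, Ighv1-55, Mrs2, Acadvl, Gapdh and Iglv1 share 22.2 to 81.1% of theirs.

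**Figure D4:**
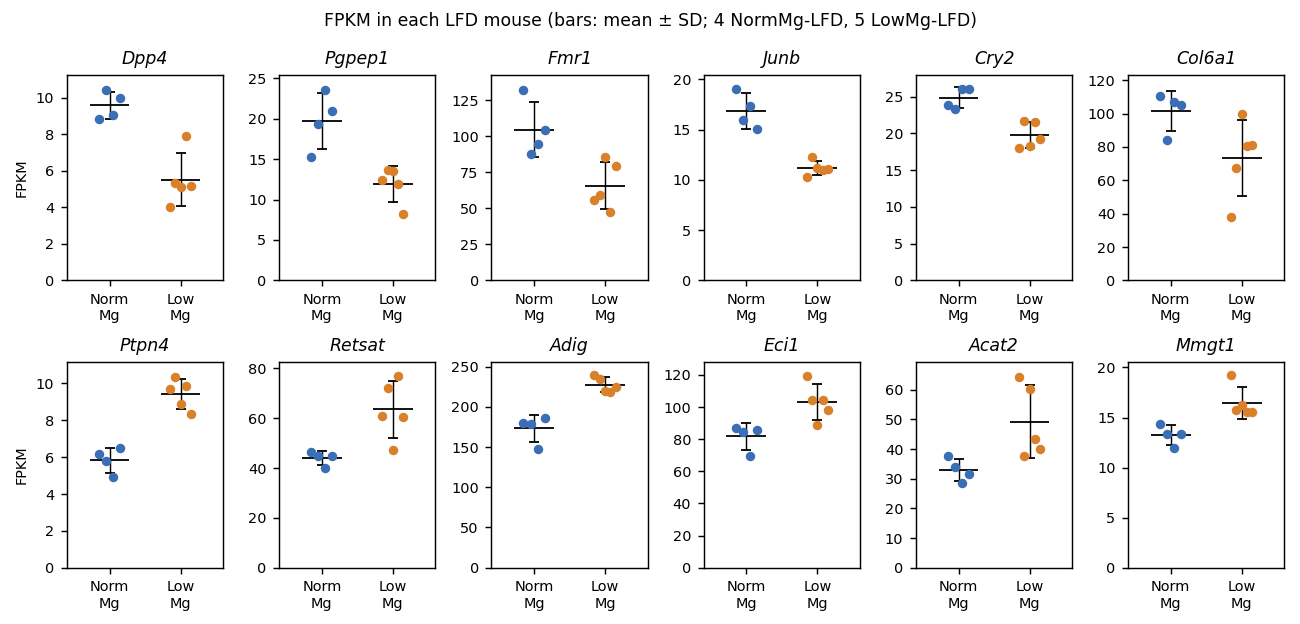
FPKM (y axes, from 0) of 12 genes in each LFD mouse, with blue points for the 4 NormMg-LFD and orange points for the 5 LowMg-LFD mice and bars for the mean ± SD. Dpp4, Pgpep1, Fmr1, Junb and Cry2 are lower and Ptpn4, Retsat, Adig, Eci1, Acat2 and Mmgt1 higher in every LowMg-LFD mouse, while Col6a1 overlaps.

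Genes of Mg2+ handling differed little. Of 26 listed channels, transporters and exchangers, 12 were tested, of which 1 was higher and 1 lower at an unadjusted p under 0.05 (background over all genes 1.7% and 4.86%), and the median was -0.10 log2 against -0.06 log2 over all genes. Mmgt1, a membrane Mg2+ transporter that is also a subunit of the ER membrane complex, was at 14.3, 13.4, 11.96 and 13.4 FPKM against 19.2, 15.8, 16.2, 15.6 and 15.5 FPKM. All 5 low Mg2+ mice lay above the normal ones, by 0.29 log2 (95% CI 0.10 to 0.48, limma unadjusted p of 0.00494, adjusted p = 0.740). Ptp4a3, a CNNM-binding phosphatase, was at 13.4, 10.5, 13.2 and 13.2 FPKM against 9.05, 10.5, 10.8, 9.92 and 10.3 FPKM. NormMg-LFD 3 lay within the low Mg2+ range (-0.28 log2, 95% CI -0.53 to -0.04), and without NormMg-LFD 4 the unadjusted limma p was 0.0574. It was also above 0.05 without NormMg-LFD 2, NormMg-LFD 5 or LowMg-LFD 1, and with each mouse centred, quantile normalization, array weights or a replicate block.

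The channel-kinase Trpm7 was at 18.3, 21.1, 23.2 and 19.7 FPKM against 17.0, 20.4, 13.1, 24.5 and 18.6 FPKM, and the groups overlapped throughout (-0.15 log2, 95% CI -0.43 to 0.13). Magt1 (-0.16 log2), Cnnm2 (0.01 log2), Cnnm3 (-0.15 log2), Tmem94 (0.07 log2), a Mg2+ pump of the ER, and the mitochondrial channel Mrs2 (0.10 log2) had intervals within 0.55 log2 of zero. Ptp4a1, the most abundant member at 171 to 247 FPKM over the 9 mice, differed by 0.18 log2 (95% CI -0.05 to 0.41).

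Fatty acid oxidation was the function list with the most members at a low p in the upward direction. Of its 23 tested genes, 22 were higher, against 35.1% of all genes tested. Of the 22, 6 had an unadjusted p under 0.05 (background 1.7%), and the median was 0.17 log2 against -0.06 log2 over all genes. Among the 6 were Slc25a20, the acylcarnitine carrier of mitochondria, the acyl-CoA dehydrogenases Acadvl and Acadm, the isomerase Eci1 and the peroxisomal enzyme Ehhadh. Eci1 was at 87.2, 84.3, 69.5 and 85.8 FPKM against 120, 104, 88.8, 104 and 97.9 FPKM, without overlap (0.33 log2, 95% CI 0.12 to 0.54). Ehhadh was at 23.3, 28.8, 17.9 and 19.3 FPKM against 39.9, 33.8, 28.6, 28.2 and 26.0 FPKM, and NormMg-LFD 3 lay among the low Mg2+ mice (0.48 log2, 95% CI 0.14 to 0.81). Cpt1a, the gate of mitochondrial uptake, differed by -0.16 log2 (95% CI -0.41 to 0.09) and was the single lower member. Cpt1b and Ppara were under the filter, at no more than 5.28 and 4.59 FPKM in any LFD mouse.

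The adipocyte marker list had a median of 0.15 log2, with Fabp4, Pnpla2 and Acvr1c of 18 tested genes at an unadjusted p under 0.05 (background 1.7%), and NormMg-LFD 4 had the lowest adipocyte sum. Without NormMg-LFD 4, the fatty acid oxidation list had 3 of 23 genes under 0.05 and a median of 0.08 log2, and the adipocyte list had 0 of 18 and 0.04 log2. With quantile normalization, the oxidation list had 8 of 23 genes under 0.05 and a median of 0.19 log2, and the adipocyte list 2 of 18 and 0.02 log2. With that scaling, 250 of all 8336 genes were higher at that p. Over all genes, 128 to 162 were higher at that p without single LFD mice, and 142 of 8329 without both NormMg-LFD 3 and LowMg-LFD 4. Without NormMg-LFD 3 and 4 and LowMg-LFD 4, the 2 lists had 3 and 1 genes under 0.05, with medians of 0.10 and -0.02 log2. The oxidation count was 4 without LowMg-LFD 1 (median 0.12 log2) or without LowMg-LFD 5, 9 without both NormMg-LFD 3 and LowMg-LFD 4 (median 0.22 log2), and 10 without LowMg-LFD 4 or without NormMg-LFD 5. The adipocyte count was 0 without LowMg-LFD 2, 1 without LowMg-LFD 1 (median 0.07 log2), and 0 with array weights or with only the 2 LFD groups in the fit. The part of adipocyte content in the oxidation genes was not tested.

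Of 13 lipases and cofactors tested, 2 were higher at an unadjusted p under 0.05 (background 1.7%). Pnpla2, which encodes ATGL, the first lipase of triacylglycerol breakdown, was at 1243, 1238, 748 and 1155 FPKM against 1484, 1724, 1090, 1620 and 1276 FPKM. The groups overlapped through LowMg-LFD 3, and the difference of 0.40 log2 (95% CI 0.07 to 0.73) was 0.23 log2 without NormMg-LFD 4. Ces1f, a carboxylesterase, was at 53.7, 64.2, 26.4 and 50.5 FPKM against 146, 80.5, 52.2, 77.4 and 73.1 FPKM, again with LowMg-LFD 3 inside the normal range (0.79 log2, 95% CI 0.22 to 1.36, and 0.53 log2 without NormMg-LFD 4). For the later lipases the intervals spanned zero, as Lipe differed by 0.03 log2 (95% CI -0.28 to 0.34) and Mgll by 0.10 log2 (95% CI -0.14 to 0.34). Of the 13, 11 were higher, against 35.1% of all genes tested, and the median was 0.07 log2. The median was 0.11 log2 without LowMg-LFD 4 and 0.12 log2 without both NormMg-LFD 3 and LowMg-LFD 4. The count under 0.05 ranged from 0 to 3 over the alternatives. Without NormMg-LFD 4, 7 were higher and none had an unadjusted p under 0.05. With array weights 7 were higher and with quantile normalization 8. Over all genes, 45.4, 44.0 and 50.9% were higher in these settings.

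Adrb3 was at 597, 672, 358 and 408 FPKM against 582, 532, 469, 457 and 612 FPKM. The low Mg2+ mice lay inside the range of the normal ones, and the interval was wide (0.10 log2, 95% CI -0.59 to 0.79). Of the 16 adrenergic and cAMP genes tested, 6 were higher and 10 lower, while 35.1% of all genes tested were higher. Gnai2, an inhibitory G protein subunit, was the single one of the 16 with an unadjusted p under 0.05 (-0.23 log2, background 4.86% lower). Ucp1 was at or under 0.42 FPKM in every LFD mouse.

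Lipid synthesis genes spread more widely. Acacb, the acetyl-CoA carboxylase of the mitochondrial surface, was at 36.8, 53.5, 24.4 and 31.02 FPKM against 55.4, 59.0, 44.1, 79.6 and 45.7 FPKM (0.65 log2, 95% CI 0.24 to 1.07, limma unadjusted p of 0.00394, adjusted p = 0.740). NormMg-LFD 3 overlapped with LowMg-LFD 3 and 5. Fasn, the fatty acid synthase, varied from 715 to 2987 FPKM among LowMg-LFD mice and from 1138 to 2018 FPKM among NormMg-LFD mice, so its 0.04 log2 difference carried an interval of -0.66 to 0.74. Of 17 synthesis genes 14 were higher, of 14 triacylglycerol synthesis genes 12, and of 37 genes of the TCA cycle and respiratory chain 36, while 35.1% of all tested genes were higher. After each mouse was centred 14, 12 and 37 were higher, against 52.5% of all genes. In each list 1 gene was higher at an unadjusted p under 0.05 (background 1.7%). Those were Acacb, Agpat3 (0.25 log2) and Atp5a1 (0.16 log2). The count for the TCA cycle and respiratory chain was 0 without NormMg-LFD 4, NormMg-LFD 5, LowMg-LFD 4 or LowMg-LFD 5. It was 3 without NormMg-LFD 3 or LowMg-LFD 3, 3 without both NormMg-LFD 3 and LowMg-LFD 4, 4 without LowMg-LFD 2 and 6 after each mouse was centred. After centring, 274 of all 8336 genes were higher at that p. The median of the TCA cycle and respiratory chain list fell from 0.12 to 0.05 log2 without LowMg-LFD 1. The synthesis list had 2 without NormMg-LFD 4 and 3 without LowMg-LFD 2, and its median of 0.17 log2 was 0.07 log2 without LowMg-LFD 1 and 0.26 to 0.29 log2 without NormMg-LFD 2, LowMg-LFD 2 or LowMg-LFD 4. The triacylglycerol list had a median of 0.16 log2, which was 0.04 log2 without NormMg-LFD 4 and 0.09 log2 without LowMg-LFD 1. Cat, peroxisomal catalase, and Sod1 were higher by 0.28 and 0.22 log2 among 28 antioxidant genes, of which Gstm1 was lower by 0.34 log2 (background 4.86% lower).

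**Figure D5:**
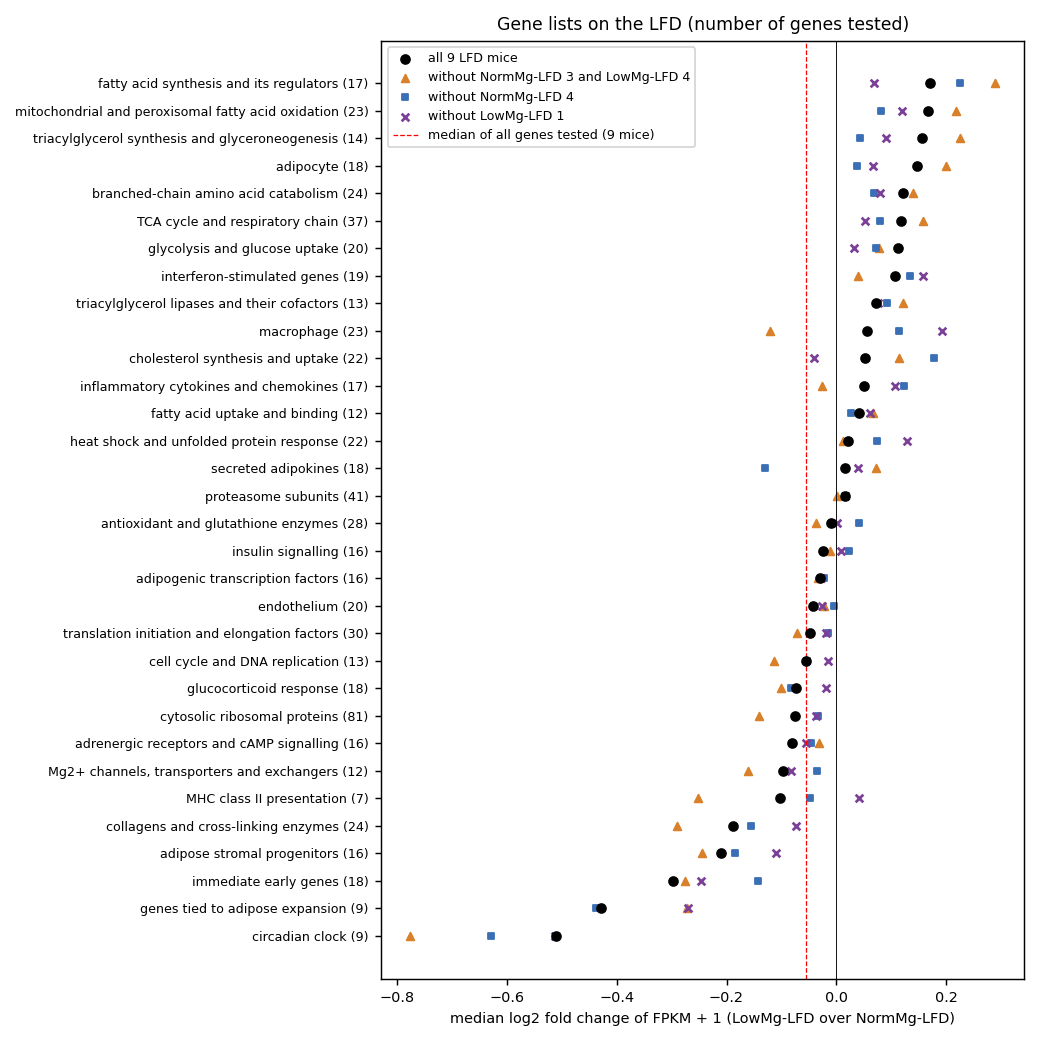
Median log2 fold change of each gene list on the LFD (x axis), with the number of genes tested in brackets, for all 9 mice and without the mice named in the key; the dashed line is the median of all genes tested. Lists of fatty acid synthesis, fatty acid oxidation and triacylglycerol synthesis lie right of that line and clock, immediate early and collagen lists left of it, in all 4 sets of mice.

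Immediate early genes, which cells switch on within minutes of a stimulus or of handling, were lower in all 18 tested members (in 16 after each mouse was centred or quantile normalized), with a median of -0.30 log2. Over all genes 35.1% were higher, and 52.5% after centring or 50.9% with quantile normalization. Of the 18, 5 (background 4.86%) had an unadjusted p under 0.05, namely Jun, Junb, Jund, Ier2 and Zfp36. After each mouse was centred 2 did, 3 did with array weights, with a replicate block or without LowMg-LFD 3, and the median with array weights was -0.14 log2. Junb, a subunit of the AP-1 transcription factor, was at 19.1, 15.9, 17.3 and 15.1 FPKM against 10.3, 12.3, 11.2, 11.01 and 11.1 FPKM. No mouse overlapped (-0.55 log2, 95% CI -0.95 to -0.14). Zfp36, which destabilises cytokine mRNAs, was at 29.7, 29.0, 26.5 and 28.2 FPKM against 18.6, 23.8, 20.9, 22.9 and 23.1 FPKM, also without overlap (-0.37 log2). Without LowMg-LFD 1 there were 2 of 18 members under 0.05 and the median was -0.25 log2. Without NormMg-LFD 4 there were 3 and the median was -0.14 log2. Over all genes, 197 were lower at that p without LowMg-LFD 1, 209 without NormMg-LFD 4 and 197 after centring.

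The circadian clock list had a median of -0.51 log2 over 9 tested genes, 2 of them lower with an unadjusted p under 0.05 (background 4.86%). The median was -0.28 log2 without LowMg-LFD 3 and -0.78 log2 without both NormMg-LFD 3 and LowMg-LFD 4. Cry2, a clock repressor, was at 23.9, 23.3, 26.1 and 26.1 FPKM against 18.02, 21.7, 18.3, 21.5 and 19.2 FPKM, without overlap (-0.32 log2, 95% CI -0.52 to -0.11, limma adjusted p = 0.740). Bhlhe40 was at 48.4, 12.9, 36.2 and 26.1 FPKM against 12.9, 27.5, 12.9, 20.1 and 4.66 FPKM (-0.98 log2, 95% CI -1.84 to -0.13). NormMg-LFD 3 lay at the level of the low Mg2+ mice, and LowMg-LFD 5 was lowest. The count of lower clock genes under 0.05 was 6 without both NormMg-LFD 3 and LowMg-LFD 4, 6 without LowMg-LFD 2 and 7 without LowMg-LFD 4. Over all genes, 559 of 8329, 404 of 8294 and 577 of 8288 were lower at that p in these settings. The clock count was 1 without NormMg-LFD 2 or LowMg-LFD 5, where 484 of 8388 and 418 of 8291 of all genes were lower. The clock output gene Dbp, whose mRNA swings widely over the day, was at 81.0, 32.3, 32.3 and 64.9 FPKM against 26.5, 71.9, 4.01, 46.7 and 12.2 FPKM. LowMg-LFD 1, 3 and 5 were low and LowMg-LFD 2 and 4 in the normal range for Dbp, and Per3 showed the same division, with 10.9, 5.11 and 8.64 FPKM against 23.7 and 28.2 FPKM, where NormMg-LFD mice had 16.1 to 20.7 FPKM. The hour at which each tissue was taken is not given in the sources used here, and its part in these values was not tested. Dbp and Per3 were named after their values were seen.

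Extracellular matrix genes were lower in 21 of 24 tested members, and in 18 after each mouse was centred, with a median of -0.19 log2 and 3 at an unadjusted p under 0.05. Over all genes tested, 35.1% were higher (52.5% after centring), and 4.86% were lower at that p (197 of 8336 after centring). Col6a1, a chain of collagen VI around adipocytes, was at 111, 84.1, 107 and 105 FPKM against 38.2, 67.4, 99.6, 80.9 and 81.0 FPKM. LowMg-LFD 3 overlapped with NormMg-LFD 3 (-0.53 log2, 95% CI -0.91 to -0.14). Col18a1 was at 57.8, 62.5, 65.5 and 69.8 FPKM against 25.9, 43.6, 65.6, 39.0 and 52.3 FPKM (-0.55 log2, 95% CI -0.91 to -0.18), and Col1a1 differed by -0.48 log2. LowMg-LFD 1 was lowest in all 3, and without it the median of the list was -0.07 log2. Without both NormMg-LFD 3 and LowMg-LFD 4 there were 5 members under 0.05, without LowMg-LFD 3 there were 6, and without LowMg-LFD 5 there were 5. Over all genes, 559 of 8329, 445 of 8299 and 418 of 8291 were lower at that p in these settings. LowMg-LFD 1 also had the lowest progenitor marker sum, 773 FPKM against 947 to 1261 FPKM in the other 8. The progenitor list had a median of -0.21 log2, with Dpp4 and Col1a1 of 16 tested genes lower at an unadjusted p under 0.05 (background 4.86%). Without both NormMg-LFD 3 and LowMg-LFD 4 there were 5, as without LowMg-LFD 4 alone, and without LowMg-LFD 1 there was 1 and the median was -0.11 log2. Over all genes, 577 of 8288 were lower at that p without LowMg-LFD 4 and 197 of 8294 without LowMg-LFD 1.

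Genes tied to adipose expansion had a median of -0.43 log2 over 9 genes, with Npr3, the clearance receptor of natriuretic peptides, the single one at an unadjusted p under 0.05 (-0.43 log2, background 4.86% lower). Without NormMg-LFD 4 there were 3. Without LowMg-LFD 1, without LowMg-LFD 4, or without both NormMg-LFD 3 and LowMg-LFD 4 there were 0, and the median was -0.27 log2 in each case. There were also 0 without NormMg-LFD 2, after each mouse was centred and with only the 2 LFD groups in the fit. There were 2 without LowMg-LFD 2, without LowMg-LFD 3, with quantile normalization and with array weights. Over all genes, 404 of 8294, 445 of 8299, 211 of 8336 and 307 of 8336 were lower at that p in these settings, and 209 of 8349 without NormMg-LFD 4. Nnat, which is imprinted and highly expressed in growing adipocytes, was at 996, 909, 529 and 1177 FPKM against 236, 979, 468, 596 and 826 FPKM. The ranges overlapped and the interval ran from -1.53 to 0.26 log2.

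The 23 macrophage markers tested had a median of 0.06 log2 and 0 under an unadjusted p of 0.05, and their sum was 1030 to 1248 FPKM in NormMg-LFD and 797 to 1566 FPKM in LowMg-LFD mice. The median turned to -0.12 log2 without both NormMg-LFD 3 and LowMg-LFD 4 and to -0.09 log2 without LowMg-LFD 4 alone. It was 0.19 log2 without LowMg-LFD 1, 0.11 log2 without NormMg-LFD 4 and 0.001 log2 without NormMg-LFD 3. Inflammatory cytokines and chemokines had 0 of 17 under 0.05 and a median of 0.05 log2. Of 19 interferon-stimulated genes, 3 were higher at an unadjusted p under 0.05 (background 1.7%). Rtp4 was at 8.79, 8.52, 7.12 and 8.82 FPKM against 13.2, 10.2, 10.5, 17.9 and 9.27 FPKM, without overlap (0.47 log2, 95% CI 0.06 to 0.89). Ifi27l2a was at 562, 860, 480 and 874 FPKM against 484, 1609, 856, 1639 and 1351 FPKM, with LowMg-LFD 1 and 3 in the normal range (0.69 log2, 95% CI 0.10 to 1.28), and Irf7, their inducer, was higher by 0.43 log2. The count was 5 after each mouse was centred, where 274 of all 8336 genes were higher at that p. It was 1 without both NormMg-LFD 3 and LowMg-LFD 4 and without each of NormMg-LFD 2, NormMg-LFD 4, LowMg-LFD 1 and LowMg-LFD 5. Without LowMg-LFD 4, 0 interferon genes were higher at an unadjusted p under 0.05, and 1 was lower.

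The 81 cytosolic ribosomal proteins had a median of -0.07 log2 and 2 members, Rpl12 and Rpl36, lower at an unadjusted p under 0.05 (background 4.86%), and the 41 proteasome subunits had a median of 0.02 log2 and none. The ribosomal median was -0.01 log2 after each mouse was centred and -0.14 log2 without both NormMg-LFD 3 and LowMg-LFD 4. Without both mice 12 of the 81 ribosomal proteins were lower at that p, where 559 of all 8329 genes were. There were 10 without LowMg-LFD 4 (577 of all 8288 genes) and 6 without NormMg-LFD 2 (484 of all 8388 genes). There were 0 without NormMg-LFD 4, NormMg-LFD 5, LowMg-LFD 1, LowMg-LFD 3 or LowMg-LFD 5.

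The other lists held few members with a low p, against 1.7% higher and 4.86% lower over all genes. At an unadjusted p under 0.05 stood Fabp4 of 12 fatty acid uptake genes (0.35 log2), Bcat2 of 24 genes of branched-chain amino acid catabolism (0.34 log2), Acat2 and Tm7sf2 of 22 sterol genes, and Igf1 and Pik3ca of 16 insulin signalling genes. Of 18 adipokines, Angptl4, an inhibitor of lipoprotein lipase, was higher (0.71 log2) and Apln and Dpp4 were lower, and Angptl4 was also the single such gene of 18 glucocorticoid response genes. H2-DMa of 7 MHC class II genes (-0.37 log2), Mcm6 of 13 proliferation genes (-0.51 log2) and Eif3k of 30 translation factors (-0.18 log2) were lower. There were 0 among 20 glycolysis, 16 adipogenic transcription factor, 2 thermogenic, 22 heat shock and 20 endothelial genes. Of the marker lists of other tissues, few genes passed the filter, and those with an unadjusted p under 0.05 were Clu (epididymis, -0.74 log2), Acta1 (skeletal muscle, 0.76 log2), Rspo1 (mesothelium, -0.86 log2) and Sycp3 (testis, 0.29 log2), while lymphocyte, blood, nerve, mast cell and pancreas lists had 0. Of these genes, Acat2 and Dpp4 stayed under 0.05 in every alternative. The others lost it in 1 to 11 alternatives each, and Fabp4, Bcat2 and Pik3ca in 11.

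The main axis of variation among the 9 mice was not separated by Mg2+ at this sample size. The first principal component held 30.1% of the variance and separated NormMg-LFD 4 (score 28.1) at one end from LowMg-LFD 1 (-22.6) and LowMg-LFD 3 (-17.3) at the other. The group means differed by -12.2 score units (p = 0.254 by a two-sided exact permutation test, and 0.381 after adjustment for the 3 components). The difference was -18.9 without LowMg-LFD 4 (exact permutation p = 0.0857) and -20.6 without both NormMg-LFD 3 and LowMg-LFD 4 (exact permutation p = 0.114). Without NormMg-LFD 4 it was -3.89 (exact permutation p = 0.75). The next 2 components, with 16.6 and 12.8% of the variance, gave exact permutation p-values of 0.254 and 0.651. Without a filter on low FPKM, the last of the 3 components separated the groups (exact permutation p = 0.00794, 0.0238 after adjustment), and without LowMg-LFD 1 it gave an exact permutation p = 0.0286 (0.0857 after adjustment). Several of the leading genes of the first component switched between near 0 and high levels from mouse to mouse. mt-Atp6, a subunit of mitochondrial ATP synthase, was listed at 0 FPKM in NormMg-LFD 4 and at 171 to 672 FPKM in the other 8 mice, and Gm4294 was at or under 0.02 FPKM in NormMg-LFD 2, 3 and 4 and at 80.3 to 105 FPKM in the other 6. Of their 50-base stretches 99.5 and 98.9% occur in other genes, in nuclear copies of mitochondrial DNA for the first and in Rpl15 and its copies for the second.

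On the HFD, 1542 of the 8336 genes (18.5%) had an adjusted p under 0.05 by limma, 465 higher and 1077 lower with low Mg2+ (649 and 849 after each mouse was centred, 786 and 878 with quantile normalization). The methods of the study leave out a LowMg-HFD mouse with traces of pancreas, without its number. All 5 labelled LowMg-HFD mice were used here, and Ctrb1 was at or under 0.41 FPKM in each of them. Without LowMg-HFD 4, 471 genes were higher and 910 lower, and the count for the difference between diets given below was 34. In the LFD mice, which share no animal with that contrast, the 465 genes had a median of -0.03 log2 (0.54 log2 on the HFD) and the 1077 genes a median of -0.05 log2 (-0.58 log2 on the HFD), against -0.06 log2 over all genes. With the genes called anew, the LFD median of those lower on the HFD was -0.09 log2 without LowMg-LFD 4 (-0.07 log2 over all genes). It was 0.001 log2 without LowMg-LFD 1 (-0.03 log2 over all genes). Without both NormMg-LFD 3 and LowMg-LFD 4 it was -0.11 log2 (-0.08 log2 over all genes). The LFD median of those higher on the HFD ranged from -0.06 to -0.005 log2 without single LFD mice. The median within-group SD was 0.195 and 0.209 log2 in the LFD groups and 0.177 and 0.209 log2 in the HFD groups. The difference of the Mg2+ effect between diets was tested directly and passed the threshold in 104 genes (1.25%), a count that ranged from 0 to 664 over the alternatives, with 0 in the fit with a replicate block.

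Among the genes named above, Igf1 and Cry2 passed that test of the difference. Igf1, a growth factor secreted by adipose macrophages and stroma, was at 88.6, 102, 84.1 and 96.4 FPKM in NormMg-LFD mice and at 111, 121, 99.7, 125 and 110 FPKM in LowMg-LFD mice. LowMg-LFD 3 lay just below NormMg-LFD 3, and the other low Mg2+ mice were above all normal ones. It was 0.29 log2 higher with low Mg2+ on the LFD and 0.41 log2 lower on the HFD (difference -0.70 log2, limma adjusted p = 0.0343). Cry2 was 0.32 log2 lower on the LFD and 0.42 log2 higher on the HFD (difference 0.74 log2, limma adjusted p = 0.0343). In Ndrg2 and Lum, which were picked for their low p in this test, the LFD estimate was -0.32 log2 (95% CI -0.72 to 0.07) and 0.01 log2 (95% CI -0.38 to 0.40), against 1.21 and -1.40 log2 on the HFD. Eepd1, chosen the same way, was lower without overlap on the LFD, from 165, 141, 125 and 124 FPKM to 86.0, 110, 108, 97.7 and 107 FPKM (-0.44 log2), and higher on the HFD (1.04 log2). For Adrb3 the effect was 1.45 log2 on the HFD against 0.10 log2 on the LFD, and the difference missed the threshold (limma adjusted p = 0.102).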

How the data were processed

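The authors sequenced RNA of snap-frozen eWAT, isolated with TRIzol and treated with DNase, as 50 bp single-end reads. They mapped the clean reads to the mouse transcriptome (GRCm38/mm10) with HISAT and Bowtie2 and deposited FPKM per gene from RSEM 1.2.31. RSEM shares reads that match several genes between them, so pseudogenes and near-identical copies are uncertain, and strand was not used here. A second deposited table gives read counts and the percent of reads mapped in each mouse.

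From the deposited FPKM, 12 broken continuation lines and 1 gene with a cell that was not a number were dropped, and 26 gene symbols stored as calendar dates were set back to their gene names. The mouse of NormMg-LFD with number 1 was not analysed here. FPKM + 1 was log2-transformed and fitted with limma 3.58.1 (R 4.3.3) over all 19 mice in 4 groups, with an intensity trend and Benjamini-Hochberg adjustment over the 8336 genes tested. FPKM are not counts, so no count test was run. Same-numbered mice of the 2 LFD groups did not deviate together in every pair, and no replicate block entered the fit. Samples are separate mice. Coordinates come from GENCODE vM21 (GRCm38). Shared 50-base stretches were counted on either strand over its transcripts. The fit was tested on simulated data. Alternatives changed the pseudocount, the filter, the scaling, the samples fitted, the trend, the weights of mice, the replicate block and the mice left out.

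Genes were named by rule: the 10 largest positive and 10 largest negative fold changes with separate groups at an unadjusted p under 0.05, the 5 smallest p in each direction, all tested Mg2+ genes, genes the study measured, the 2 members of each of 29 function lists with the lowest p and the 2 with the highest level, the 3 highest members of each of 14 marker lists, and 5 genes at each end of the first component. Others were named after their values were seen, among them Vasn, the Leydig cell genes, the remaining members under 0.05 of a list and Ndrg2, Lum and Eepd1. Some results are not reported here. The comparison, lists and rules were chosen with earlier results of these data known.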

Additional observations from a re-analysis of the deposited data

Results flagged for a closer look

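In 134 groups of 4 or 5 values, a mouse was called apart when its gap to the nearest other mouse of its group was too large a part of the group's range by Dixon's criterion, which chance alone meets in about 1 of 20 groups. This held for 23 values. Many of the items were picked for a high value in some mouse, and some overlap, as Ctrb1 and the pancreas list do. The 23 can therefore not be set against that rate. Most of the 23 were genes or marker lists of neighbouring organs. NormMg-LFD 3 stood apart by 342.3 FPKM of Ctrb1, by 2415 FPKM summed over pancreas markers and by 158.6 FPKM over seminal vesicle, prostate and vas deferens markers. NormMg-LFD 4 stood apart by 411.4 FPKM of Insl3 and 539 FPKM over Leydig cell markers. LowMg-LFD 4 stood apart by 91.15 FPKM of Crisp1 and 377.1 FPKM over epididymis markers. Within its group it also stood apart by 173.7 FPKM over mesothelium, 67.82 FPKM over pancreas and 8.33 FPKM over seminal vesicle markers. NormMg-LFD 5 had 195.6 FPKM over mesothelium markers, and NormMg-LFD 4 had 58.58 FPKM over pancreas and 14.58 FPKM over seminal vesicle markers. Of the 32 pancreas genes, 3 were over 1 FPKM in LowMg-LFD 4, against 29 in NormMg-LFD 3. LowMg-LFD 1 stood apart by 40.62 FPKM of Prm1, 149.9 FPKM over spermatid markers and 364.4 FPKM over testis and sperm markers.

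Among other genes, LowMg-LFD 1 had the highest Mmgt1 (19.22 FPKM) and Cat (457.5 FPKM) and stood apart in Ndrg2 (47.98 FPKM). NormMg-LFD 4 was low in Eci1 (69.52 FPKM). NormMg-LFD 3 was low in Ptp4a3 (10.5 FPKM) and Myl4 (7.09 FPKM). LowMg-LFD 3 was low in Igkc (33.85 FPKM), in Leydig cell markers (3.37 FPKM) and apart in nerve and Schwann cell markers (157.8 FPKM). NormMg-LFD 5 alone of its group carried Gm4294 (98.27 FPKM), whose reads are shared with Rpl15 and its copies.

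The Mg2+ effect of 5 named genes differed between the diets by a direct test of the difference (limma, adjusted over all genes). Subtracting the LFD effect from the HFD effect gave -0.70 log2 for Igf1, 0.74 log2 for Cry2, 1.53 log2 for Ndrg2, 1.48 log2 for Eepd1 and -1.41 log2 for Lum.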

How the results depend on the processing

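With other settings of the fit, the number of genes past an adjusted p of 0.05 on the LFD stayed at 0 except for 1 gene without both NormMg-LFD 3 and LowMg-LFD 4 and 1 gene without a filter on low FPKM. The first was Vasn and the second Itpa-ps2, a pseudogene at 0.31 to 0.62 FPKM in NormMg-LFD mice and listed at 0 in LowMg-LFD mice, named after its values were seen. Genes with an unadjusted p under 0.05 numbered 850 with a filter at 1 FPKM and 1192 with none, where more genes were tested, and 338 to 720 when single mice were left out, with the fewest without LowMg-LFD 1 (338) and NormMg-LFD 4 (359). Genes whose groups did not overlap numbered 224 and 274 with these filters, 149 without LowMg-HFD 4 and 203 to 359 without single LFD mice, 626 without both mice and 1142 without NormMg-LFD 3 and 4 and LowMg-LFD 4, a setting chosen after seeing the data. Smaller groups overlap less by construction.

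The number of genes whose Mg2+ effect differed between diets depended on nearly every setting. It was 24 with a pseudocount of 0.1, 48 with the filter at 1 FPKM, 2 without a filter, 245 with each mouse centred, 347 with quantile normalization, 67 without an intensity trend and 664 with array weights. It was 34 without LowMg-HFD 4, 1 without both mice, 0 without the 3 mice and 0 to 207 without single LFD mice. The cause was not tested.

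Same-numbered LFD mice had correlations of their deviations of -0.11, -0.14, 0.34 and 0.11 (numbers 2 to 5). LowMg-LFD 4 and 5 correlated best with the NormMg-LFD mouse of their own number, and the low Mg2+ mice with the negative values did not. Whether the numbers pair the mice was not tested. The fit with a replicate block gave 0 genes on the LFD past the threshold, 458 with an unadjusted p under 0.05 and 0 for the difference between diets.

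Of 80 named genes with an unadjusted p under 0.05, 26 kept it in every alternative. Among their 1680 alternative values, 335 lost it and 1 changed sign, Acta1, at -0.13 log2 without the 3 mice, 0.32 to 1.16 log2 without single mice and 0.76 log2 with all. With 4 and 5 mice, the 95% interval reached 0.30 log2 to either side of the estimate at the median gene. It reached 0.20 log2 at the 10th and 0.52 log2 at the 90th percentile. The difference that could be told from the spread between mice thus varied by gene.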
